A study of Mus musculus with 9 samples.

Results

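The genes examined are 7 that mark or shape B1 cells, chosen by name: Cd5, Spn (which encodes CD43) and Cd9, whose products sit on the cell surface, and Bhlhe41, Bhlhe40, Zbtb32 and Arid3a, which encode transcription factors. They are 7 of the 22174 genes in the normalized expression table, and all 7 passed the expression filter. Splenic B cells of 9 mice of strain C57/BL6NTac were sequenced, with 1 library per mouse. The groups were 3 Eµ-MTCP1 mice (Z2641, Z2606 and Z2551), which carried the human MTCP1 transgene, 3 Eµ-TCL1 mice (C1594, B4437 and B4376), which carried the human TCL1 transgene, and 3 wildtype mice without a transgene (Z2785, Z2755 and Z2754). The series asks how leukemic B cells of the MTCP1 model compare with those of the established TCL1 model and with normal B cells. Both transgenes were placed under immunoglobulin heavy chain regulatory elements, so that they were active in B cells generally, and all Eµ-MTCP1 mice came from 1 founder line. According to the methods, mice of both sexes were used and the leukemic mice had advanced disease; ages were not given. B cells were enriched by removing other cells rather than by sorting for CD5 or another B1 marker.

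B1 cells are a lineage of B cells that arises largely before and around birth, renews itself and secretes natural IgM. They are common in the body cavities and scarce in the spleen, where follicular B2 cells prevail, and their B1a subset carries CD5, a protein otherwise typical of T cells. Chronic lymphocytic leukemia and its TCL1 mouse model are expansions of CD5-bearing B cells, which is why these genes bear on both models. The wildtype libraries are thus a mixture in which B1 cells are a minority, and in such bulk samples a different share of B1 cells and a different amount of RNA per cell cannot be told apart.

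The identity of the libraries was checked first. In the normalized log2 values of the authors, human TCL1A lay at 14.93 to 15.6 in Eµ-TCL1 mice and at 6.037 to 6.961 in all others, and human MTCP1 lay at 11.12 to 12.3 in Eµ-MTCP1 mice and at 5.849 to 6.191 in all others, so every library matched its label. The general B cell markers Cd79a, Cd79b, Ms4a1, Pax5 and Cd22 were all above the floor of 3 reads in every library, and 0 of these 5 passed the test in either model against wildtype. Depth was 6464089 to 8053017 estimated reads per library on the reference used for the tests, which consists of coding sequences and the human transgenes. Levels are given below as normalized CPM (reads scaled to a common library size) on that reference. At this depth 3 reads correspond to 0.326 to 0.496 CPM, a floor that covers counting error only, since the amplified reads carry no molecular identifiers. Differences are log2 fold changes with their standard error (SE), and a gene is called changed at an adjusted p under 0.05 in the quasi-likelihood F test of edgeR over 11165 genes.

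Of the 7 genes, 5 were called higher and 1 lower in Eµ-MTCP1 than in wildtype B cells, where 5.49% of all genes tested were called higher and 3.99% lower. In Eµ-TCL1 against wildtype the numbers were again 5 higher and 1 lower, against 5.07% and 4.13% of all genes. The genes were the same in both comparisons: Cd5, Cd9, Bhlhe41, Zbtb32 and Arid3a rose and Bhlhe40 fell, while Spn missed the threshold. With the 6 transgenic mice pooled against the 3 wildtype mice, 6 were called higher and 1 lower, against 6.95% and 6.16% of all genes. The median log2 fold change of the 7 genes was 2.65 in Eµ-MTCP1 and 2.21 in Eµ-TCL1, and that of all genes tested was -0.02 and -0.01. Both models were compared with the same wildtype mice, so the comparisons are not independent. The plot of CPM by mouse shows the values behind these counts.

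**Figure D1:**
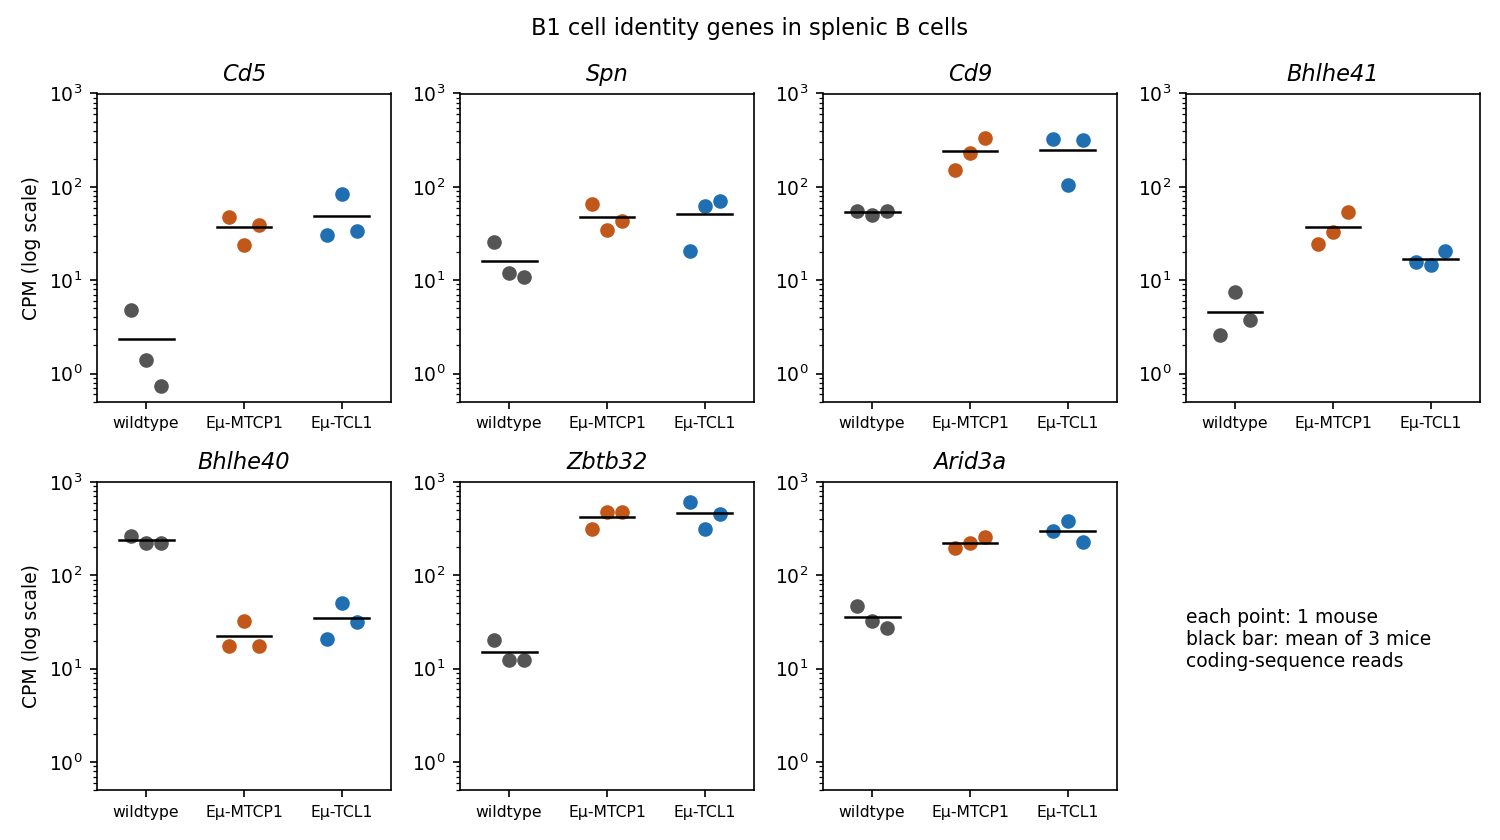
Normalized expression (CPM, log scale) of the 7 genes in each mouse, by group, with 1 point per mouse and a black bar at the mean of 3 mice. The wildtype points lie below all transgenic points for Cd5, Cd9, Bhlhe41, Zbtb32 and Arid3a, and above them for Bhlhe40. For Spn the wildtype mouse Z2785 at 25.4 CPM lies above the Eµ-TCL1 mouse C1594 at 20.6 CPM, and the other wildtype points lie below all transgenic points.

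Cd5 (chr19:10717116-10739002, minus strand, GRCm38) encodes a scavenger-type receptor that dampens antigen receptor signaling and defines B1a cells. In wildtype B cells it was barely measured, with 4.83 CPM in Z2785 (32 reads), 1.41 CPM in Z2755 (13 reads) and 0.743 CPM in Z2754 (6 reads). In Eµ-MTCP1 mice it reached 47.4, 23.9 and 38.9 CPM, and in Eµ-TCL1 mice 30.5, 83.4 and 34.0 CPM. Every leukemic value was above every wildtype value, and the highest was that of Eµ-TCL1 mouse B4437. The increase was 16.2-fold in Eµ-MTCP1 (log2 fold change 4.02 ± 0.65 SE, adjusted p = 0.00378) and 21.8-fold in Eµ-TCL1 (4.44 ± 0.66, adjusted p = 0.00235). The size of the increase depends on few wildtype reads: without wildtype mouse Z2785 it was 5.05 and 5.48 on the log2 scale. With limma on the authors' normalized log2 values, whose lowest value over all genes is 5.8485, it was 2.001 and 2.299, the smallest of the alternatives, and still called (adjusted p = 0.0123 and 0.00586).

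T cells also express Cd5, so T cell markers are given beside it. Of 12 such genes 6 had enough reads to be tested and 0 were called in either model against wildtype. Their summed level was 74.9 to 114 CPM in wildtype, 37.7 to 140 CPM in the Eµ-MTCP1 group and 52.8 to 168 CPM in the Eµ-TCL1 group, most of it from Lck, and 3 to 12 of the 12 were above the floor in a library. Cd3e, part of the T cell receptor complex, had 3 to 11 reads in wildtype libraries, 0 to 1 in Eµ-MTCP1 libraries and 2, 4 and 51 in those of C1594, B4437 and B4376. Cd3g, another part of that complex, had 9 to 14 reads in wildtype libraries, 136, 12 and 3 in those of Z2641, Z2606 and Z2551, and 53, 67 and 146 in those of C1594, B4437 and B4376 (log2 fold change 2.51 ± 1.09, adjusted p = 0.187, and 3.05 ± 1.10, adjusted p = 0.116).

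Without Lck, the other 11 markers had 58 to 127 reads in wildtype libraries, 148, 55 and 43 in those of Z2641, Z2606 and Z2551, and 75, 178 and 563 in those of C1594, B4437 and B4376. Cd5 was highest in the library with the most of these reads among wildtype mice (Z2785) and among Eµ-MTCP1 mice (Z2641, where 136 of the 148 were from Cd3g), and among Eµ-TCL1 mice it was highest in B4437 while these reads were most in B4376. The part of T cells in the level of Cd5 was not tested.

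Of 11 genes for the partners and downstream signaling of CD5, 1 was higher and 1 lower in Eµ-MTCP1, where 5.49% and 3.99% of all genes were, and 1 was higher and 0 lower in Eµ-TCL1, against 5.07% and 4.13%. Nfatc1, a calcium-responsive factor needed for B1a cells, rose from a mean of 316 CPM to 678 and 709 CPM (log2 fold change 1.10 ± 0.21, adjusted p = 0.00828, and 1.17 ± 0.21, adjusted p = 0.00611). Ets1, a lymphocyte transcription factor, fell by 1.02 in Eµ-MTCP1 (adjusted p = 0.0251), a call that held in 14 of 18 alternatives, and its value in Eµ-TCL1 was -0.60 (adjusted p = 0.152). Ptpn6, the phosphatase SHP-1, had log2 fold changes of -0.16 and -0.02, and Cd6, a relative of Cd5 also found on T cells, of -0.68 ± 1.45 and 1.95 ± 1.38, with no call. With both models together Csnk2b, a casein kinase subunit that binds CD5, was called as well (0.67 ± 0.19, adjusted p = 0.0473).

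Spn (chr7:127132232-127137823, minus strand) encodes CD43, a heavily glycosylated sialomucin that is high on B1 cells and plasma cells and low on resting B2 cells, and that T cells carry as well. Its wildtype values were 25.4, 11.8 and 10.9 CPM in Z2785, Z2755 and Z2754. Eµ-MTCP1 mice had 65.4, 34.1 and 43.2 CPM, all above wildtype. Eµ-TCL1 mice had 20.6, 61.8 and 69.9 CPM, of which that of C1594 lay within the wildtype range. The log2 fold change was 1.57 ± 0.48 in Eµ-MTCP1 (95% interval 0.51 to 2.64, adjusted p = 0.0683) and 1.67 ± 0.48 in Eµ-TCL1 (0.60 to 2.73, adjusted p = 0.0562), so that neither passed the threshold. Over 18 alternatives the adjusted p ran from 0.0125 to 0.23 and from 0.00713 to 0.195, and Spn was called in 7 and 6 of them. In each group Spn was highest in the library with the most reads of the 11 T cell markers without Lck. It was at 25.4 CPM in Z2785 (19.2 CPM for the markers), 65.4 CPM in Z2641 (24.4 CPM) and 69.9 CPM in B4376 (77.9 CPM). In Z2641, however, 136 of the 148 marker reads were from Cd3g, and 8 of the 12 T cell markers had 0 reads. The part of T cells in the level of Spn was not tested.

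With all 6 transgenic mice against wildtype, Spn was called, at 3.07-fold (log2 fold change 1.62 ± 0.44, adjusted p = 0.0355), although the groups overlapped. That call was lost in 7 of 17 alternatives (adjusted p from 0.00152 to 0.16), among them those without wildtype mouse Z2755 (adjusted p = 0.149) and without wildtype mouse Z2754 (adjusted p = 0.16), and also without Z2641, Z2551, B4437 or B4376. On the standard reference, which counts the long untranslated part of this transcript, Spn had 213 to 327 reads in wildtype and 394 to 1266 in leukemic mice, and every leukemic value was above every wildtype value. There it was called in both models (1.81 ± 0.43 in each, adjusted p = 0.0279 in Eµ-MTCP1 and 0.0278 in Eµ-TCL1).

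CD43 links to the cytoskeleton through ezrin proteins and carries O-glycans whose form differs between cell types. The 8 genes listed beside Spn are genes for these functions and also Icam1, which encodes an adhesion protein. Of the 8, 1 was higher and 1 lower in each model, where 5.49% and 3.99% (Eµ-MTCP1) and 5.07% and 4.13% (Eµ-TCL1) of all genes were. St3gal1, a sialyltransferase that caps short O-glycans, rose from a mean of 18.5 CPM to 76.0 and 77.5 CPM (log2 fold change 2.04 ± 0.33, adjusted p = 0.00365, and 2.06 ± 0.33, adjusted p = 0.00346). Gcnt1, which starts the competing branched form, fell from 13.1 CPM to 2.30 and 3.32 CPM (-2.49 ± 0.53, adjusted p = 0.0158, and -1.98 ± 0.51, adjusted p = 0.0374, held in 16 and 12 of 18 alternatives). Over the 18 alternatives the values for Gcnt1 ran from -2.82 to -0.98 in Eµ-MTCP1 and from -2.64 to -0.86 in Eµ-TCL1. The value of -2.64 was that without Eµ-TCL1 mouse B4376. Ezr and Msn, which encode ezrin and moesin, had log2 fold changes between -0.17 and 0.40, with no call.

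Cd9 (chr6:125460266-125494791, minus strand) encodes a tetraspanin of the cell surface found on B1, marginal zone and plasma cells and on platelets. Its wildtype values were close together, at 55.7, 49.4 and 55.3 CPM. In Eµ-MTCP1 mice Z2641, Z2606 and Z2551 it reached 153, 232 and 334 CPM, and in Eµ-TCL1 mice C1594, B4437 and B4376 it reached 323, 105 and 314 CPM. The lowest leukemic value was that of B4437, still above all wildtype values. The increase was 4.48-fold in Eµ-MTCP1 (log2 fold change 2.16 ± 0.41, adjusted p = 0.00915) and 4.62-fold in Eµ-TCL1 (2.21 ± 0.41, adjusted p = 0.00818). The first call was at its threshold without wildtype mouse Z2754 (adjusted p = 0.0502) and held in the other 17 of 18 alternatives, the lowest adjusted p being 2.8e-06.

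Markers of other CD9-bearing cells are given beside it. Platelet genes, of which 2 of 6 were tested and 0 called, summed to 1.81 to 3.96 CPM in wildtype, 2.13 to 4.46 CPM in the Eµ-MTCP1 group and 2.49 to 3.78 CPM in the Eµ-TCL1 group, with 1 or 2 of 6 above the floor in each library and Ppbp at 0 reads in all. Plasma cell genes summed to 1103 to 1816 CPM in wildtype, 899 to 3822 CPM in the Eµ-MTCP1 group and 573 to 2824 CPM in the Eµ-TCL1 group, with 6 of 6 above the floor. Of these, Mzb1, a chaperone for IgM, was called higher in Eµ-MTCP1 (log2 fold change 1.66 ± 0.44, adjusted p = 0.042, held in 9 of 18 alternatives), with 1.28 ± 0.44 in Eµ-TCL1 (adjusted p = 0.101). In both models the mouse with the lowest plasma cell sum also had the lowest Cd9. These were Z2641 (899 CPM, with Cd9 at 153 CPM) and B4437 (573 CPM, with Cd9 at 105 CPM). The highest sums, in Z2606 and B4376, were not in the mice with the highest Cd9. The part of plasma cells in the level of Cd9 was not tested.

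Of 16 other tetraspanins and their partners, 15 were tested, and 1 was higher and 1 lower in Eµ-MTCP1, with 1 higher and 0 lower in Eµ-TCL1, against the same shares of all genes as given above. Igsf8, a direct partner of CD9, rose from a mean of 34.6 CPM to 96.4 and 112 CPM (log2 fold change 1.48 ± 0.32, adjusted p = 0.0166, and 1.69 ± 0.32, adjusted p = 0.00837), a call lost in Eµ-MTCP1 without wildtype mouse Z2785 and in both models without wildtype mouse Z2754 (adjusted p = 0.0812 and 0.0501). Cd82, another tetraspanin, fell by 1.31 in Eµ-MTCP1 (adjusted p = 0.00828), and its value in Eµ-TCL1 was -0.80 (adjusted p = 0.066). Cd81, a widely expressed tetraspanin, had log2 fold changes of 0.52 and 0.65, and Cd37, an abundant B cell tetraspanin, of 0.29 and 0.12, with no call.

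Zbtb32 (chr7:30589681-30598909, minus strand), a zinc finger repressor expressed in B1 and memory B cells, showed the largest increase of the 7 genes in both models with all 9 libraries; without wildtype mouse Z2785 that of Cd5 was larger in Eµ-TCL1 (5.48 against 5.22 on the log2 scale). It stood at 20.2, 12.4 and 12.3 CPM in the wildtype mice Z2785, Z2755 and Z2754. It stood at 311, 476 and 472 CPM in the Eµ-MTCP1 mice Z2641, Z2606 and Z2551, and at 611, 317 and 453 CPM in the Eµ-TCL1 mice C1594, B4437 and B4376. The lowest leukemic value thus exceeded the highest wildtype value by a wide margin. The increase was 28.1-fold in Eµ-MTCP1 (log2 fold change 4.81 ± 0.35, adjusted p = 0.000117) and 30.8-fold in Eµ-TCL1 (4.95 ± 0.35, adjusted p = 8.61e-05). On the coding reference the reads fell on a pair of transcripts, and the longer, Zbtb32-202, held 80.7 to 84.1% of them in wildtype, 81.5 to 88.2% in the Eµ-MTCP1 group and 88.5 to 88.9% in the Eµ-TCL1 group. In TPM, which divides by length, the shorter Zbtb32-201 held the larger share on the same reference. It held 70.2 to 73.5% in wildtype, 62.8 to 73.9% in the Eµ-MTCP1 group and 60.8 to 62.2% in the Eµ-TCL1 group. There its 306 bases entered as an effective length of only 86 to 95 bases. On the standard reference Zbtb32-202 had the higher TPM in all wildtype and all Eµ-TCL1 mice, such as 188 against 144 in C1594 and 5.93 against 5.76 in Z2785. In Eµ-MTCP1 mouse Z2641 Zbtb32-201 was higher there (125 against 67.5).

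The stretches before the annotated starts of Cd5, Zbtb32 and Bhlhe41 are printed because these genes have the largest increases or, for Bhlhe41, hold a motif. They are taken from RefSeq promoter windows (GRCm38.p6), which were given for 5 of the 7 genes (Bhlhe40 and Arid3a had no entry), are read 5′ to 3′ on the minus strand, and leave out bases inside the gene as GENCODE annotates it. Capitals mark matches to the motifs searched on both strands in the 250 bases before each start: the E-box CACGTG, to which BHLHE40 and BHLHE41 bind, the octamer ATGCAAAT, the cAMP response element TGACGTCA and the NFAT core GGAAAA. The windows are chr19:10739003-10739224 for Cd5, chr7:30598910-30599159 for Zbtb32 and chr6:145865559-145865670 for Bhlhe41.
Cd5: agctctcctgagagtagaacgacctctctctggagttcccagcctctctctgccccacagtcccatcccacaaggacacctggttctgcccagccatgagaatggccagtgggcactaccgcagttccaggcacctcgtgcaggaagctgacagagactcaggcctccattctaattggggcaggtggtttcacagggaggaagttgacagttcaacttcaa
Zbtb32: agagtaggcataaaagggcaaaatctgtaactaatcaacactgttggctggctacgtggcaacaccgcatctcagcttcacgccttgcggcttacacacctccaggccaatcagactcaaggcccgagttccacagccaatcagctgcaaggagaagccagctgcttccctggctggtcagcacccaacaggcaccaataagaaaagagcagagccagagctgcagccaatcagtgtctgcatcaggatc
Bhlhe41: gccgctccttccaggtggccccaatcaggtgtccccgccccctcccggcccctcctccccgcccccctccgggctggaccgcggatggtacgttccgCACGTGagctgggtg
Among the 6 windows of these genes (Zbtb32 has 2) the only match was an E-box before Bhlhe41, 148 to 153 bases ahead of its RefSeq start. E-boxes were present in 6.02% of 32851 mouse promoter windows, octamers in 1.60%, cAMP response elements in 1.55% and NFAT cores in 20.4%. These are letter matches and do not show binding.

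ZBTB32 can repress Ciita, the master regulator of MHC class II genes, and Ciita fell in both models, from a mean of 706 CPM to 341 CPM in Eµ-MTCP1 (log2 fold change -1.05 ± 0.23, adjusted p = 0.0171, held in 15 of 18 alternatives) and 291 CPM in Eµ-TCL1 (-1.28 ± 0.23, adjusted p = 0.00628). Among the other relatives and targets listed, 9 of 11 were tested, Ciita included. In Eµ-MTCP1 1 was higher and 3 were lower (5.49% and 3.99% of all genes), and in Eµ-TCL1 1 was higher and 2 were lower (5.07% and 4.13%). Zbtb38, which binds methylated DNA, rose by 1.52 and 1.45 on the log2 scale (adjusted p = 0.00365 and 0.00461). Zbtb24, also a zinc finger factor, fell by 0.85 in each model (adjusted p = 0.0438 and 0.0424), a call kept in 6 and 9 of 18 alternatives. Zbtb18, a repressor, fell by 1.97 in Eµ-MTCP1 (adjusted p = 0.0151, held in 17 of 18 alternatives), and its value in Eµ-TCL1 was -1.29 (adjusted p = 0.073).

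Arid3a (chr10:79927043-79955018, plus strand) encodes a DNA-binding factor that promotes the B1 fate in early life. Wildtype mice Z2785, Z2755 and Z2754 had 46.7, 32.6 and 27.3 CPM. Eµ-MTCP1 mice had 195, 219.6 and 256 CPM, and Eµ-TCL1 mice 296, 381 and 227 CPM. The groups of leukemic mice overlapped each other and did not overlap wildtype. The increase was 6.29-fold in Eµ-MTCP1 (log2 fold change 2.65 ± 0.27, adjusted p = 0.000342) and 8.49-fold in Eµ-TCL1 (3.09 ± 0.27, adjusted p = 0.000185), with the smallest SE of the 7 genes.

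Transcript estimates on the standard mouse reference, which includes untranslated regions, gave a different mix of Arid3a transcripts. Arid3a-201 held 43.8 ± 7.51% (SD, n = 3) of the gene's reads in wildtype, 24.4 ± 10.5% in Eµ-MTCP1 and 24.0 ± 7.64% in Eµ-TCL1 mice, and Arid3a-202 held 34.2 ± 7.10%, 51.6 ± 11.7% and 52.6 ± 6.28%. The share of Arid3a-201 in Eµ-MTCP1 mouse Z2641 (35.6%) lay just above that of wildtype mouse Z2785 (35.3%), and these shares were not tested. Arid3a-202 is not in the coding reference, where 98.4 to 100% of the reads were assigned to Arid3a-201. Of 6 genes related to Arid3a, 5 were tested and 0 were called in either model against wildtype, where 5.49% of all genes were called higher and 3.99% lower in Eµ-MTCP1 and 5.07% and 4.13% in Eµ-TCL1 mice. Arid3b, its closest relative among them, had log2 fold changes of 0.77 and 0.70 (adjusted p = 0.0643 and 0.0871), and Btk, a kinase that cooperates with ARID3A at the heavy chain locus, of -0.49 and -0.57 (adjusted p = 0.0908 and 0.0562). With both models together Arid3b was called higher (0.73 ± 0.20, adjusted p = 0.0402) and Btk lower (-0.53 ± 0.14, adjusted p = 0.0305), against 6.95% and 6.16% of all genes.

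Bhlhe41 and Bhlhe40 encode closely related basic helix-loop-helix repressors, of which Bhlhe41 is needed for B1a cells, and they moved in opposite directions. Bhlhe41 (chr6:145858243-145865558, minus strand) stood at 2.57, 7.49 and 3.72 CPM in the wildtype mice Z2785, Z2755 and Z2754, from 17 to 69 reads. It stood at 24.6, 33.1 and 53.2 CPM in Eµ-MTCP1 and at 15.8, 14.5 and 20.6 CPM in Eµ-TCL1 mice, so that no group overlapped another. The increase was 7.94-fold in Eµ-MTCP1 (log2 fold change 2.99 ± 0.44, adjusted p = 0.00219) and 3.65-fold in Eµ-TCL1 (1.87 ± 0.42, adjusted p = 0.0208). The second call was lost without wildtype mouse Z2785 (adjusted p = 0.0636), without wildtype mouse Z2754 (adjusted p = 0.0926) and without Eµ-TCL1 mouse B4376 (adjusted p = 0.0597), and held in the other 15 of 18 alternatives, the lowest adjusted p being 0.000177.

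Bhlhe40 (chr6:108660629-108666925, plus strand) was the most abundant of the 7 genes per length in wildtype B cells. It stood at 265, 222 and 223 CPM in the wildtype mice Z2785, Z2755 and Z2754. It stood at 17.7, 32.1 and 17.4 CPM in the Eµ-MTCP1 mice Z2641, Z2606 and Z2551, and at 21.01, 50.8 and 31.7 CPM in the Eµ-TCL1 mice C1594, B4437 and B4376. All leukemic values lay far below all wildtype values. Bhlhe40 was 10.5-fold lower in Eµ-MTCP1 (log2 fold change -3.40 ± 0.36, adjusted p = 0.000418) and 6.84-fold lower in Eµ-TCL1 (-2.77 ± 0.35, adjusted p = 0.000878).

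Because the pair is alike, the sequences were compared to see whether reads could be shared. The most alike stretch of 180 bases lies in exons 3 and 4 of 5 in both genes, in the part that encodes the basic helix-loop-helix domain, at bases 178 to 357 of the 1236 coding bases of Bhlhe40 (chr6:108661532-108662619, plus strand, with an intron between) and at bases 154 to 333 of the 1233 coding bases of Bhlhe41 (chr6:145864144-145864656, minus strand, likewise with an intron). It is printed 5′ to 3′ from the GENCODE M21 transcripts, with capitals at the bases that differ.
Bhlhe40: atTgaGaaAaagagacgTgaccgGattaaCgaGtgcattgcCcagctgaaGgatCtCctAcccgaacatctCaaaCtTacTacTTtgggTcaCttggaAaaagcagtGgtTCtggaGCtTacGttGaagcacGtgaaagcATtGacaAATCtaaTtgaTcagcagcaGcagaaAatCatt
Bhlhe41: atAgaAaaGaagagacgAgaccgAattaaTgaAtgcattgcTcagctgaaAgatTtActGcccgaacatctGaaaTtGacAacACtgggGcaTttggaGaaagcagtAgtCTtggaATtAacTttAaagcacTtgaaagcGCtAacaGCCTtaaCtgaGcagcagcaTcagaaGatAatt
In this stretch 138 of 180 bases (76.7%) were identical and 42 differed. The longest run shared anywhere in the coding sequences was 15 bases, and 0 of 1206 and 1203 different 31-base words were common to both.

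The ratio of Bhlhe41 to Bhlhe40, taken from TPM (a transcript measure that divides by length), was 0.0188 to 0.0629 in wildtype mice, 2.01 to 6.03 with the MTCP1 transgene and 0.548 to 1.54 with the TCL1 transgene. Bhlhe41 thus exceeded Bhlhe40 in 5 of 6 leukemic mice and in 0 of 3 wildtype mice, with B4437 as the exception among the leukemias. On the standard reference the ratio was 0.0207 to 0.0406, 1.13 to 2.93 and 0.7215 to 1.62, with the same exception. The plot of Bhlhe41 against Bhlhe40 shows both references.

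**Figure D2:**
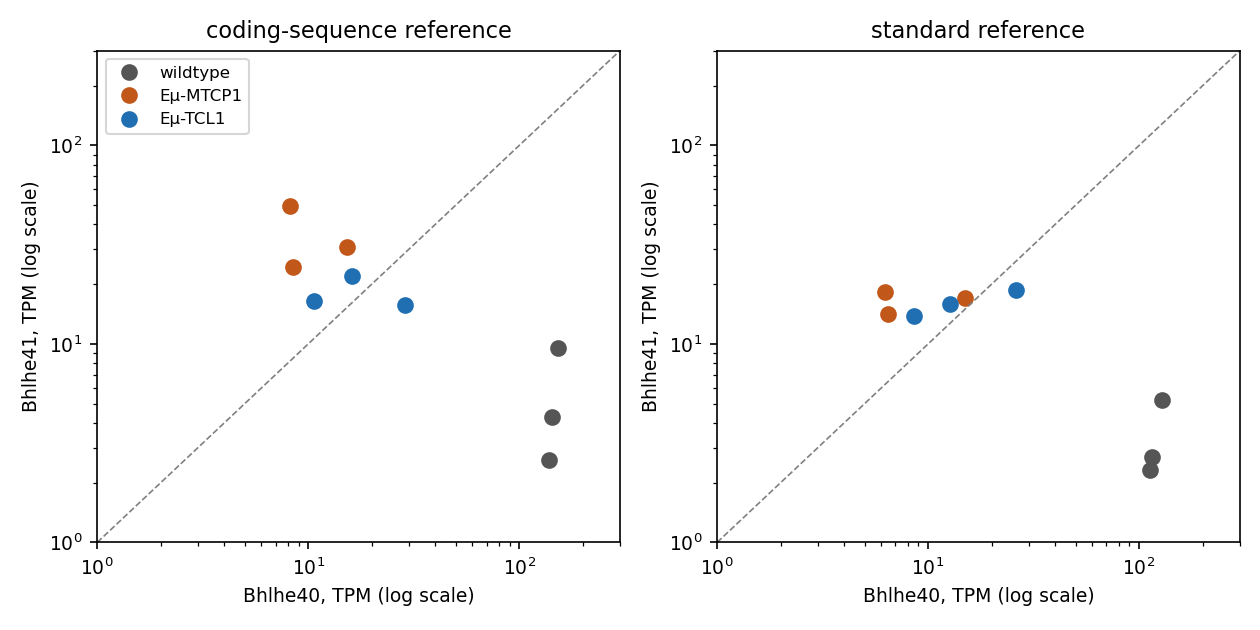
Bhlhe41 against Bhlhe40 in TPM (both axes on log scales) on the coding-sequence reference and on the standard reference, with 1 point per mouse, and a dashed line where both are equal. Wildtype mice lie far below the line, and all leukemic mice other than B4437 lie above it; the Eµ-MTCP1 and Eµ-TCL1 mice are apart in Bhlhe41 on the coding reference (24.4 to 49.7 and 15.8 to 22.1 TPM) and overlap on the standard reference (14.2 to 18.2 and 13.9 to 18.8 TPM).

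Products of Bhlhe40 and Bhlhe41 damp the circadian clock by binding E-boxes that CLOCK and ARNTL use, so 13 clock genes were examined, of which 11 were tested. In Eµ-MTCP1 0 were higher and 2 lower, against 3.99% of all genes lower, and in Eµ-TCL1 0 were higher and 1 lower, against 4.13%. Ciart, a repressor in the clock, fell with Bhlhe40. It went from 146 to 168 CPM in wildtype mice to 5.12 to 23.6 CPM in Eµ-MTCP1 (log2 fold change -3.65 ± 0.49, adjusted p = 0.00145) and 19.045 to 33.3 CPM in Eµ-TCL1 mice (-2.69 ± 0.47, adjusted p = 0.00559). Without Eµ-MTCP1 mouse Z2606, the highest of its group, the value for Ciart in that model was -4.56. Its smallest fall there over the 18 alternatives was -2.91. Arntl fell by 1.03 in Eµ-MTCP1 (adjusted p = 0.0368, held in 11 of 18 alternatives), with a value of -0.86 in Eµ-TCL1 (adjusted p = 0.0707). Per1, a core clock repressor, had values of -0.93 and -0.35 (adjusted p = 0.219 and 0.668), and Dbp, an output gene of the clock, of 0.22 and 0.25, with no call. The hour at which spleens were taken was not given in the sources used here.

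**Figure D3:**
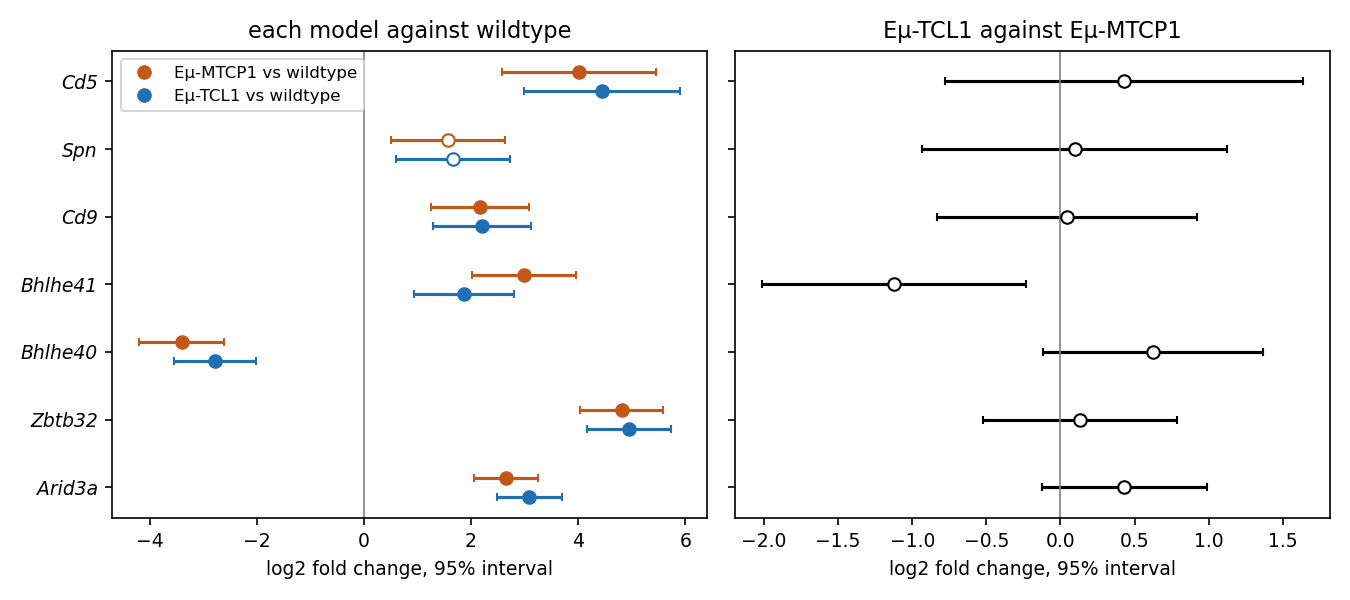
Log2 fold changes with 95% intervals for the 7 genes, each model against wildtype on the left and Eµ-TCL1 against Eµ-MTCP1 on the right, with filled points for adjusted p under 0.05. On the left 6 of 7 points are filled for each model and Spn is open; on the right all 7 are open, and the interval for Bhlhe41 (-2.01 to -0.23) is the only one without 0.

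Between the models, 0 of the 7 genes were called in edgeR, against 0.0448% (5 of 11165) of all genes. An unadjusted p under 0.05 was reached by 717 genes, of which 1 was among the 7, and DESeq2 and limma also called 0 of 7. That gene was Bhlhe41, which was lower in Eµ-TCL1, with a log2 difference of -1.12 ± 0.40 (95% interval -2.01 to -0.23, unadjusted p = 0.0186, adjusted p = 0.684) and no overlap between the groups. For the others the log2 difference of Eµ-TCL1 minus Eµ-MTCP1 was 0.43 for Cd5 (-0.78 to 1.63), 0.09 for Spn (-0.93 to 1.12) and 0.04 for Cd9 (-0.83 to 0.92). It was 0.62 for Bhlhe40 (-0.12 to 1.36), 0.13 for Zbtb32 (-0.52 to 0.78) and 0.43 for Arid3a (-0.13 to 0.99). The intervals are wide: for Cd5 they leave room for a difference of over 1 on the log2 scale in favor of Eµ-TCL1, and the absence of a call does not show that the models are alike.

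The difference of Bhlhe41 between the models depended on which part of the transcript was counted. Coding reads were 9.15 to 32.1% of the reads that Bhlhe41 received on the standard reference, the lowest share of the 7 genes in each group's mean. The share was 15.2, 19.3 and 32.1% in the Eµ-MTCP1 mice Z2641, Z2606 and Z2551, and 13.7, 9.15 and 16.1% in the Eµ-TCL1 mice C1594, B4437 and B4376. On the standard reference Bhlhe41 had 824 to 1289 reads in leukemic mice, the groups overlapped, and the difference between the models was -0.25 ± 0.22 (95% interval -0.73 to 0.24, adjusted p = 0.883). Against wildtype it was higher in both models there as well, by 2.58 ± 0.23 in Eµ-MTCP1 (adjusted p = 0.000258) and 2.33 ± 0.23 in Eµ-TCL1 (adjusted p = 0.000361), with a smaller SE than on the coding reference.

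**Figure D4:**
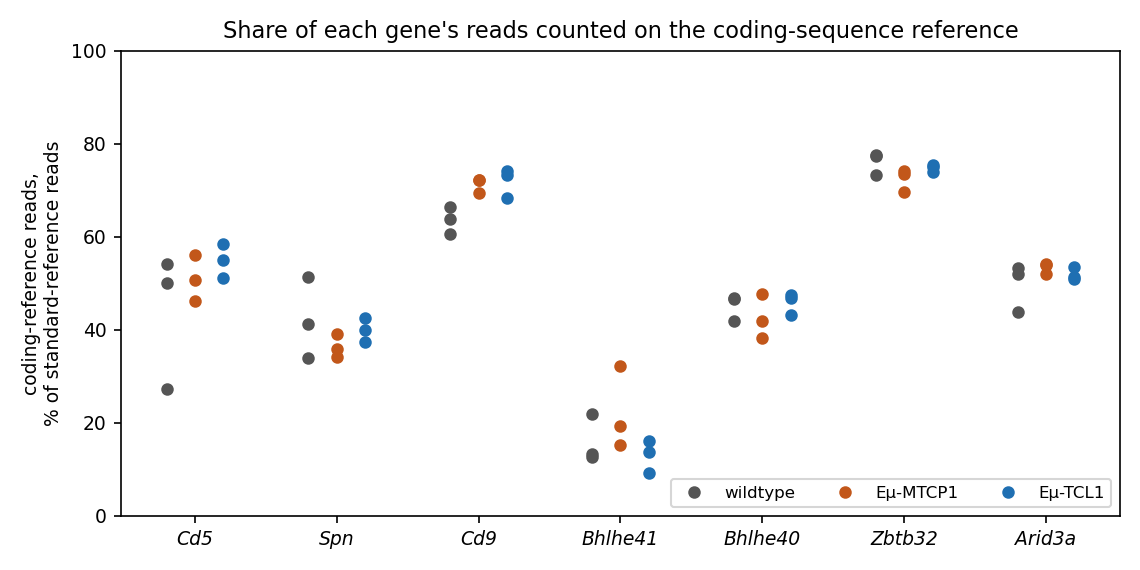
Reads of each gene on the coding-sequence reference as a percentage of its reads on the standard reference, with 1 point per mouse. Bhlhe41 is lowest in all groups (means 15.9% in wildtype, 22.2% in Eµ-MTCP1 and 13.0% in Eµ-TCL1), and Zbtb32 and Cd9 are highest.

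The order of the 7 genes by level, in TPM on the coding reference, differed between wildtype and leukemic mice. In wildtype B cells it was Bhlhe40 (145 ± 6.97, SD, n = 3), Cd9 (61.0 ± 5.97), Zbtb32 (17.7 ± 2.36), Arid3a (13.7 ± 2.45), Spn (8.51 ± 2.92), Bhlhe41 (5.49 ± 3.64) and Cd5 (2.25 ± 3.02). From Arid3a down, each gene's range over mice overlapped that of the next. In Eµ-MTCP1 mice it was Zbtb32 (345 ± 23.9), Cd9 (216 ± 80.6), Arid3a (63.4 ± 8.08), Bhlhe41 (34.9 ± 13.2), Cd5 (24.5 ± 9.68), Spn (20.5 ± 7.28) and Bhlhe40 (10.7 ± 3.98). In Eµ-TCL1 mice it was Zbtb32 (368 ± 112), Cd9 (237 ± 117), Arid3a (96.6 ± 25.0), Cd5 (36.5 ± 24.3), Spn (23.5 ± 12.3), Bhlhe40 (18.5 ± 9.28) and Bhlhe41 (18.1 ± 3.46). Bhlhe40, at the top in wildtype mice, was at rank 7 in Eµ-MTCP1 and rank 6 in Eµ-TCL1 mice, and Zbtb32 was at the top in both. In both models the 4 lowest genes overlapped their neighbors, and in Eµ-TCL1 mice so did the 3 highest. On the standard reference Zbtb32 and Arid3a exchanged places in wildtype mice, Bhlhe41 came after Cd5 and Spn in Eµ-MTCP1 mice, and Bhlhe40 and Bhlhe41 exchanged ranks 6 and 7 in Eµ-TCL1 mice.

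Mice of 1 model differed among themselves, and the genes did not rank them alike. Among Eµ-TCL1 mice, B4437 had the highest Cd5, Bhlhe40 and Arid3a and the lowest Cd9 and Zbtb32, and C1594 had the highest Cd9 and Zbtb32 and the lowest Cd5, Spn and Bhlhe40. For Bhlhe41, B4437 was the lowest of these mice on the coding reference (14.5 CPM) and the highest on the standard reference (91.8 CPM, against 67.5 and 75.5 CPM). Among Eµ-MTCP1 mice, Z2641 had the highest Cd5 and Spn and the lowest Cd9, Bhlhe41, Zbtb32 and Arid3a. The spread within a model was widest for Cd5 in Eµ-TCL1 mice (49.3 ± 29.6 CPM, SD, n = 3) and narrowest for Arid3a in Eµ-MTCP1 mice (223 ± 30.7 CPM), as a share of the mean. Among wildtype mice, Z2785 had the highest Cd5, Spn, Zbtb32, Arid3a and Bhlhe40. The library of wildtype mouse Z2755 was run on a sequencing lane of its own; without it the 6 genes called in each model were still called, and Bhlhe41 rose by 3.51 and 2.39 on the log2 scale.

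Of 12 further genes tied to B1 cells, 10 were tested, and 6 were higher and 0 lower in each model, against 5.49% and 5.07% of all genes called higher. Il5ra, the receptor chain for interleukin-5 on which B1 cells depend, rose from 10.2 to 19.5 CPM in wildtype mice to 48.9 to 106 CPM in the MTCP1 model and 81.2 to 93.6 CPM in the TCL1 model (log2 fold change 2.65 ± 0.34, adjusted p = 0.00116, and 2.66 ± 0.34, adjusted p = 0.00105). Ctla4, an inhibitory receptor best known from T cells, rose from 4.34 to 5.29 CPM to 24.1 to 44.9 CPM and 8.10 to 37.7 CPM (2.90 ± 0.51, adjusted p = 0.00584, and 2.18 ± 0.50, adjusted p = 0.0212, the latter held in 13 of 18 alternatives and 1.49 without mouse C1594, with the call lost). Zbtb20, a zinc finger factor of B1 and plasma cells, rose by 1.77 and 1.43 (adjusted p = 0.00325 and 0.0095), and Plac8, a small cysteine-rich protein enriched in B1 cells, by 0.94 and 1.22 (adjusted p = 0.0229, held in 13 of 18 alternatives, and 0.00661). Prdm1, which drives antibody secretion, rose by 2.11 and 1.83 (adjusted p = 0.0227 and 0.0401, held in 13 and 11 of 18 alternatives). Without Eµ-MTCP1 mouse Z2606 the value for Prdm1 in that model was 1.46, and the call was lost. Over all 18 alternatives the smallest values were 1.51 and 0.96 for Ctla4 and 1.37 and 1.26 for Prdm1.

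The same list holds genes of the fetal program from which B1 cells arise. Hmga2, a chromatin protein of fetal stem cells, had 5 to 17 reads in wildtype and 17 to 108 reads in leukemic libraries and was called in both models (log2 fold change 2.54 ± 0.69, adjusted p = 0.0461, and 2.98 ± 0.70, adjusted p = 0.0237), a call that held in 6 and 14 of 17 alternatives. Over these alternatives the values for Hmga2 ran from 0.74 to 3.41 in Eµ-MTCP1 and from 0.995 to 3.86 in Eµ-TCL1. The highest were those without wildtype mouse Z2785. Lin28b, the RNA-binding protein that sets the fetal program, had 0 reads in all 9 libraries, which allows up to the floor of 3 reads each. Igf2bp3, a target of LIN28B, had 7 to 10 reads in wildtype libraries and 0 or 1 in leukemic ones and was too low to be tested. The other 4 B1-related genes tested, Itgam (which encodes CD11b), Siglecg, Fcrl5 and Ahr, had log2 fold changes between 0.10 and 0.95 and were not called. Those of Siglecg were 0.19 and 0.10, and those of Fcrl5 0.54 and 0.19.

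**Figure D5:**
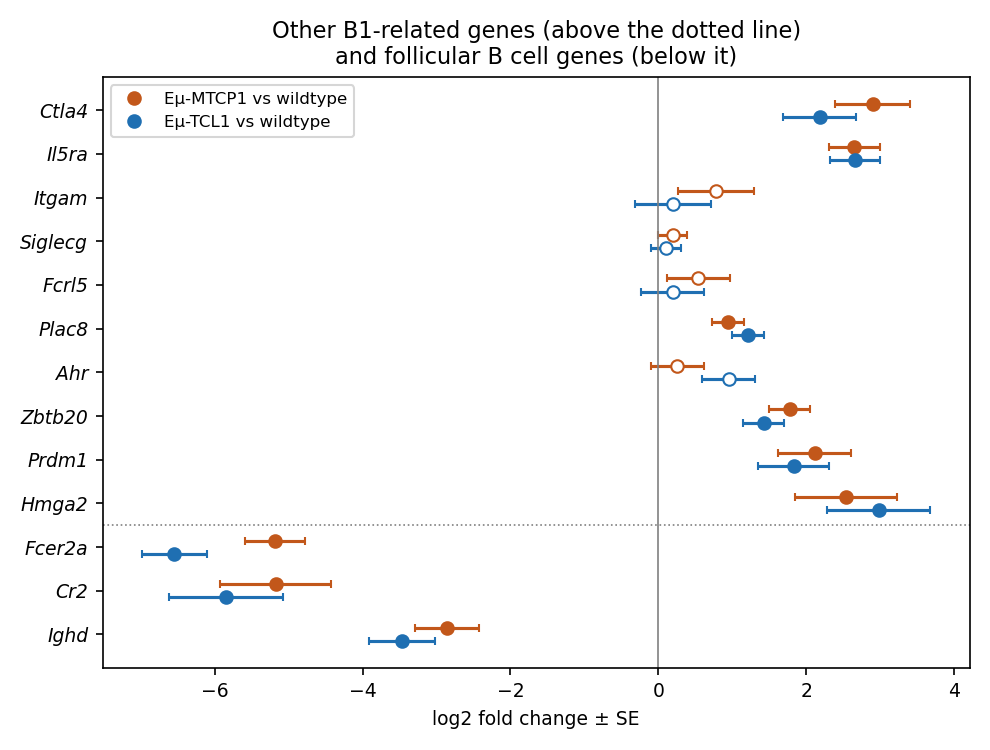
Log2 fold changes ± SE of 10 further B1-related genes and 3 B2 cell genes (labeled follicular in the plot) in each model against wildtype, with filled points for adjusted p under 0.05. Of the B1-related genes 6 are filled and to the right of 0 in both models, and the B2 cell genes Fcer2a, Cr2 and Ighd are filled and far to the left.

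The 3 genes taken as the B2 cell counterpart all fell in both models, against 3.99% and 4.13% of all genes called lower. Fcer2a, which encodes CD23, went from a mean of 356 CPM to 9.68 and 3.78 CPM (log2 fold change -5.19 ± 0.41, adjusted p = 0.000175, and -6.55 ± 0.44, adjusted p = 6.53e-05). Cr2 encodes the complement receptor CD21, which the paper also uses to identify marginal zone B cells. It went from 812 CPM to 22.5 CPM in Eµ-MTCP1 mice, with values from 4.13 to 50.4 CPM, and to 14.1 CPM in Eµ-TCL1 mice. Without Eµ-MTCP1 mouse Z2551, at 50.4 CPM, its log2 fold change in that model moved from -5.18 to -6.56. Levels of Ighd, the IgD heavy chain, went from 947 CPM to 130 and 85.8 CPM. Their sum was 1872 to 2566 CPM in wildtype, 76.3 to 226 CPM in the Eµ-MTCP1 group and 62.6 to 146 CPM in the Eµ-TCL1 group, without overlap. All 3 calls held in every one of 18 alternatives in both models.

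The genes whose pattern over the 9 libraries was most like that of each member were sought among 8956 genes of at least 5 CPM, by Pearson's r of log2 CPM. For Zbtb32 they were Ahnak2 (r = 0.999), Cd80 (0.994), a costimulatory ligand, and Plekha7 (0.991). For Arid3a they were Slc7a7 (0.997), an amino acid transporter subunit, Upb1 (0.988) and Cct5 (0.985). For Cd5 the closest was Tchp (0.987), for Cd9 Ovol3 (0.984), for Bhlhe41 Wdr3 (0.972) and for Spn G530012D18Rik (0.961). For Bhlhe40 they were Emid1 (0.987), Ciart (0.973) and Gsn (0.971). All 9 libraries share the contrast of leukemic with wildtype mice, which enters each of these values, and they are given as a description. After the mean of each model was subtracted, over the 6 leukemic libraries alone, the closest genes were others, among them Zc3h12d for Cd5 (r = 0.998), Vcam1 for Zbtb32 (0.996) and Nfat5 for Bhlhe41 (0.9997), with 6 points for each.

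Markers of other cells in the spleen were read beside these results. Myeloid genes summed to 827 to 1710 CPM in wildtype, 808 to 1254 CPM in the Eµ-MTCP1 group and 348 to 1530 CPM in the Eµ-TCL1 group, with 8 of 8 above the floor. Cd68, a lysosomal protein in this list, was called higher in both models (log2 fold change 2.06 ± 0.32, adjusted p = 0.00316, and 1.91 ± 0.32, adjusted p = 0.00462), while the macrophage receptor Csf1r had -1.08 and -0.35, with no call. Natural killer cell genes summed to 39.9 to 73.0 CPM, 19.5 to 25.3 CPM and 3.08 to 120 CPM, and red cell genes to 36.7 to 173 CPM, 26.3 to 316 CPM and 22.4 to 69.1 CPM, with 0 called. The part of these cells in the levels of the 7 genes was not tested.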

How the data were processed

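RNA of splenic B cells from 9 mice was sequenced, 1 library per mouse, on 1 lane per the file headers except for wildtype mouse Z2755. The authors estimated transcript levels with Salmon 1.0.0 on a standard mouse reference and on one with the human transgenes added, and deposited estimated counts and TPM per transcript, gene counts (50600 genes), and log2 values normalized with DESeq2. In the second reference 92.2% of transcripts with a coding sequence had exactly its length, so untranslated regions are mostly not counted. Columns of the authors' own comparisons (fold changes and p-values) were not used.

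Estimated counts on the second reference were summed per gene (22154 genes, GENCODE M21 names, GRCm38), rounded, and tested with edgeR 4.0.16 in R 4.3.3: filterByExpr (11165 genes kept), TMM, and quasi-likelihood F tests with all 9 libraries in 1 model, with Benjamini-Hochberg adjustment over all genes tested. Intervals are 95% intervals of the log2 fold change. The test was checked on simulated counts. Alternatives (18) used limma 3.58.1 on the log2 values, DESeq2 1.42.0, the standard reference (14891 genes), the gene counts, other scalings and filters, and fits without each library. Transcript shares and TPM were taken as deposited. The methods name a later GENCODE release than the one used for names, and 0.19 to 0.291% of reads lay on transcripts without a match.

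The 7 genes, the other lists and the tests were chosen with earlier results of these data known. Beside the 7 genes, the text names each listed gene that passed the test against wildtype, some other genes of the lists, and up to 3 genes of most similar pattern. Replicates are separate mice. A marker gene of the lists is not reported here.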

Additional observations from a re-analysis of the deposited data

How the results depend on the processing

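Over 18 alternatives (17 for all transgenic against wildtype mice) the number of the 7 genes called was 5 to 7 in each model, 6 to 7 with both models together, and 0 between the models. Among the values under each alternative, 461 kept direction and side of the threshold, 13 gained and 11 lost the threshold, all of them for Spn, Cd9 or Bhlhe41, and 12 changed sign. All sign changes were between the models. The difference of Eµ-TCL1 minus Eµ-MTCP1 was -0.0105 for Spn with the deposited gene counts, and -0.0354 for Cd9 and -0.0332 for Zbtb32 with limma. Leaving out 1 library gave -0.19 to 0.68 for Cd5, -0.20 to 0.47 for Spn, -0.20 to 0.41 for Cd9 and -0.13 to 0.34 for Zbtb32. The cause was not tested. Against wildtype, limma on the authors' log2 values gave smaller changes for all 7 genes, such as 3.79 and 3.76 for Zbtb32, 1.63 and 0.97 for Bhlhe41 and -2.83 and -2.38 for Bhlhe40, and called the same number, 6, in each model. With scaling by total reads the median of all genes was -0.26 and -0.15 in the models, and no member changed direction against wildtype. Over all genes, 1059 were called in Eµ-MTCP1 against wildtype by edgeR, 1646 by DESeq2 and 525 without wildtype mouse Z2754; in Eµ-TCL1 these were 1027, 1695 and 517. Between the models 5 were called by edgeR, 16 without the filter and 73 by DESeq2. Fewer libraries were compared in each fit that left one out. A fit of only the groups compared gives no value for both models together. Depth limits Cd5 and Bhlhe41 in wildtype mice most, with 6 to 69 reads per library. No paired analysis was possible because the labels name each library by its mouse alone, give no replicate numbers, and tie no mice of different groups to a shared litter or batch.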
